A study of Homo sapiens with 8 samples.

Results

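DAXX binding was compared between control PC3 cells (WT) and PC3 cells with a stable DAXX knockdown (K/D), by asking which DAXX ChIP-Seq peaks of the one list had a peak at the same place in the other. On chromosomes 1 to 22, X and Y the WT list held 59761 DAXX peaks and the K/D list 42876, which is 102637 of the 249711 peaks of all lists of the series, and no DAXX peak lay on chromosome Y. A WT peak was called kept when it had at least 1 bp in common with a K/D peak, and lost when it had none. There were 28901 kept WT peaks (48.4% of the list) and 30860 lost ones, and 13975 K/D peaks had no WT peak (32.6% of the K/D list, called K/D-only here). Of the 73736 places with a DAXX peak in either list, 39.2% were in both, 41.9% in WT alone and 19.0% in K/D alone.

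PC3 is a cell line from a bone metastasis of a prostate cancer. The control cells are labelled as wild type, but the study describes a control shRNA line, and WT stands for either. K/D cells carried a lentiviral DAXX shRNA as a stable line grown in medium with puromycin, and chromatin was crosslinked in 2 steps and precipitated with 1 polyclonal DAXX antibody. Each side is 1 library, called against the input of the same cells, so no test between WT and K/D cells was possible and the 95% intervals below cover counting error only. H3(Lys4) regions at transcription start sites (TSS) were checked for the labelled cell type. They stood within 1 kb of a TSS of 5 of 5 epithelial line genes (KRT8, KRT18, EPCAM, CDH1 and VIM) in WT and K/D cells, of 1 of 3 blood genes in WT and 0 of 3 in K/D, and of 0 of 2 neural and 0 of 2 liver genes in either.

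DAXX is a histone chaperone that places the variant histone H3.3 with its partner ATRX, gathers in PML nuclear bodies, and represses transcription together with histone deacetylases and DNA methyltransferases. It has no DNA-binding domain of its own, so it reaches DNA through other proteins. Among the DNA-binding proteins whose motifs matter below, AP-1 is a dimer of FOS and JUN proteins that sits at enhancers of epithelial and mesenchymal cells, and nuclear receptors such as the orphan receptors bind the core AGGTCA, alone or as a repeat. CTCF binds insulators and loop anchors, and ETS factors bind promoters and enhancers.

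The sequences that carry the comparison are peaks early in deposited order, from each of the 3 sets. They hold an AP-1 site (TGACTCA) or a nuclear receptor half-site (AAGGTCA). Sequence was not printed from every chromosome, so they need not be the first such peaks of their set. They were read from the hg19 genome on its plus strand. Capitals mark the site, which reads as its reverse complement where it lies on the minus strand. The kept AP-1 peak is the first peak of both lists, intronic in the gene of the semaphorin and VEGF co-receptor NRP1 (chr10:33553233-33553405), and it holds 2 sites. The lost one stood at place 687 of the WT list, in an intron of ZMIZ1, a SUMO pathway co-activator (chr10:80871350-80871522), 1645 bp from the nearest K/D peak. The K/D-only one stood at place 433 of the K/D list, between genes, at -178744 bp from the nearest TSS, that of ITGB1, an integrin gene (chr10:33425867-33426037, negative being upstream).
AP-1, kept: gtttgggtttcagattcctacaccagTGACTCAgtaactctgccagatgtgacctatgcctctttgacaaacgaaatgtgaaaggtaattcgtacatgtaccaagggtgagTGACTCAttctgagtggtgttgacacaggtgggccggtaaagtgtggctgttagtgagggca
AP-1, lost: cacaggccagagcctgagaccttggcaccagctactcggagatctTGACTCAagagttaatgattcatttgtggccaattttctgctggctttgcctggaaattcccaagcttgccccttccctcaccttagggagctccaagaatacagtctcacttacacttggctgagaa
AP-1, K/D-only: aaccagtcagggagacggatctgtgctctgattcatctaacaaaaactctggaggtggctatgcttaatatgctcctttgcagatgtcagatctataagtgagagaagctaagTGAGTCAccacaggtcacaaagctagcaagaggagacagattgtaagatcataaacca

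The kept half-site peak stood at place 4 of the WT list and place 3 of the K/D list and lay 147 bp inside NRP1 (chr10:33624957-33625129). Its printed run stops at the border of a first exon of NRP1, which leaves out 7 exon bases. The lost half-site peak lay in an intron of the same gene (chr10:33541742-33541914), at place 150, with a K/D peak centred 229 bp away. The K/D-only one stood at place 376 of the K/D list, 322265 bp from the TSS of TLE4, a co-repressor gene (chr9:82510268-82510438), and a WT peak was centred 475 bp from it.
Half-site, kept: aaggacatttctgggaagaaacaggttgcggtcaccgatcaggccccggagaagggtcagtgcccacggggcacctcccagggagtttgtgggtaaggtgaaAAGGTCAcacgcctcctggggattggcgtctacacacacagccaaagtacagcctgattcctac
Half-site, lost: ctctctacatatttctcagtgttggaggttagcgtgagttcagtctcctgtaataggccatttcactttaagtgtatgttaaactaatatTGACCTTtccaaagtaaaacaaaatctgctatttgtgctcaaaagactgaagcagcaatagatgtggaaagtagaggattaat
Half-site, K/D-only: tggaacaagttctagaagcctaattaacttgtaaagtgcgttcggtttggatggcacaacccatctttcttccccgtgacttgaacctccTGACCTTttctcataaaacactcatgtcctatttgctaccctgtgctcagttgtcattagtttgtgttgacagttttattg

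The share of kept peaks fell along the WT list. The tag total was 15208845 for WT and 18210051 for K/D DAXX, with 15.8% and 6.83% of tags in peaks and a mean of 40.1 and 29.0 tags per peak. The caller asked for 10 tags in either list, and the input comparison took out 34.3% of the putative WT and 48.8% of the putative K/D peaks. In the first of 20 equal parts of the WT list 96.8% of peaks were kept (interval 96.1 to 97.4), and in the last part 13.9% (interval 12.6 to 15.2). Along the K/D list the share with a WT peak went from 98.9% (interval 98.4 to 99.3) to 30.4% (interval 28.4 to 32.4). The 2 lists also ordered their peaks differently. Of the first 1000 WT peaks 98.7% had a peak somewhere in the K/D list, but 74.2% had one among the first 1000 K/D peaks (interval 71.4 to 76.9), and 68.7% of the first 20000 had one among the first 20000. Cutting the WT list to the length of the K/D list gave 59.5% kept (interval 59.04 to 59.97).

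**Figure D1:**
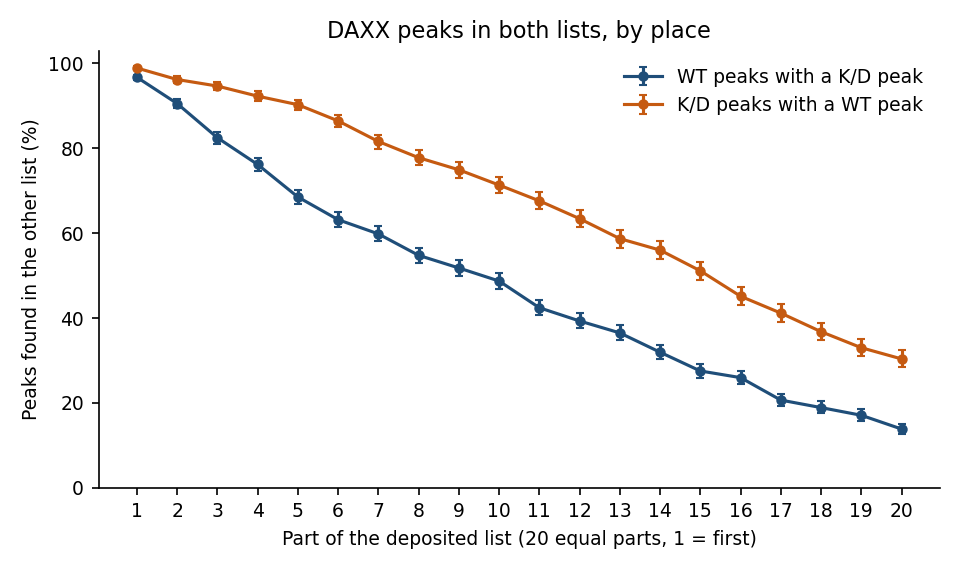
Percentage of peaks found in the other DAXX list (y axis) for 20 equal parts of each list in deposited order (x axis), WT in blue and K/D in orange, with exact 95% binomial intervals. The WT curve goes from 96.8% to 13.9% and the K/D curve from 98.9% to 30.4%, and the K/D curve lies above the WT curve in each part.

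Since place in the list moved with being kept to this degree, every feature below was compared between peaks of the same place. The share of peaks with the feature was taken in each of 20 equal parts of the list for kept and for lost peaks, and the differences were averaged (kept minus lost in the WT list, K/D-only minus shared in the K/D list).

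Few peaks lay near the limit of the overlap rule. Kept pairs had centres a median of 20 bp apart, with 90% within 60 bp, and 26955 of them (93.3%) had more than 100 bp in common. Just inside the rule were 123 kept peaks with 1 to 20 bp in common (0.426% of the kept), and just outside it 83 lost peaks with a gap of at most 20 bp (0.269% of the lost). The nearest K/D centre was a median of 11774 bp from a lost peak, 3.64% of lost peaks had one within 500 bp, and 45.8% within 10 kb. K/D-only peaks lay a median of 10788 bp from the nearest WT peak. They spread to both sides of the lost peaks, with 7.01% within 500 bp and 11.1% more than 100 kb from any WT peak, against 4.90% of the lost peaks beyond that distance from a K/D peak.

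**Figure D2:**
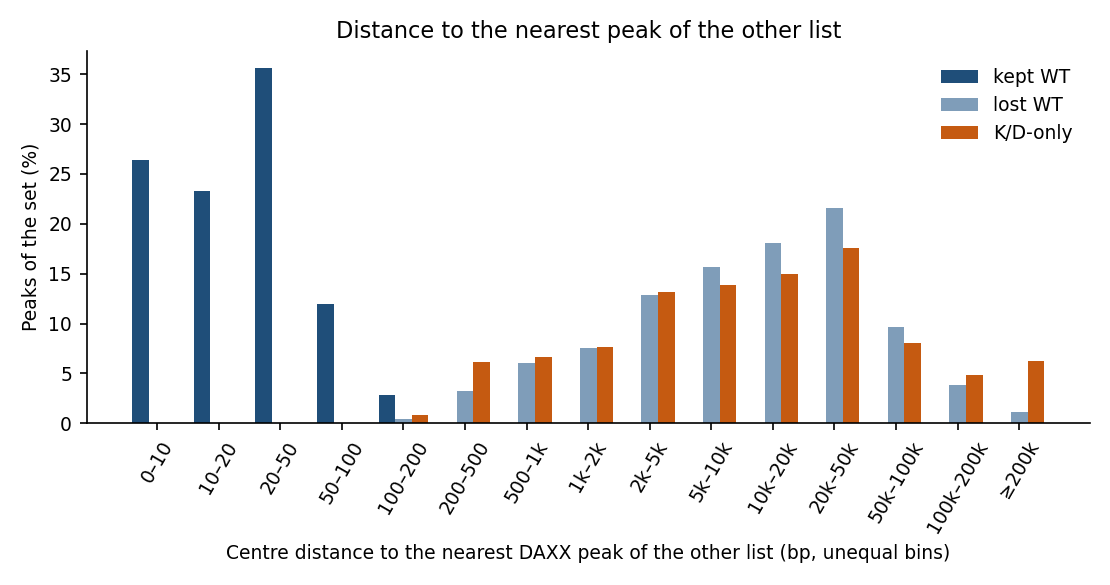
Bars give the percentage of kept WT, lost WT and K/D-only peaks (y axis) by the distance from the peak centre to the nearest centre of the other list (x axis, bp, bins of unequal width). Kept peaks fall under 200 bp. Lost peaks fall mostly between 2 and 50 kb, and 6.21% of K/D-only peaks lie 200 kb or more away against 1.11% of lost peaks.

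The nuclear receptor half-site AAGGTCA was more common in kept than in lost peaks. It stood within 100 bp of the centre (both strands) of 10.2% of WT DAXX peaks and of 3.60% of windows 2 kb away. At matched place it was in 13.1% of kept and 6.35% of lost peaks, a difference of 6.72 percentage points (interval 6.18 to 7.26) with the same sign in 20 of 20 parts and an odds ratio of 2.22 (interval 2.08 to 2.37). The gap was present at both ends of the list. In the first of 10 equal parts 17.3% of kept (968 of 5598) and 3.69% of lost peaks (14 of 379) held the site, and in the last part 14.2% of kept (131 of 925) and 8.36% of lost peaks (422 of 5051).

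The difference was not limited to that spelling. The core AGGTCA, which holds AAGGTCA, was in 36.4% of kept and 23.1% of lost peaks at matched place (difference 13.3, interval 12.5 to 14.1). Of the other bases before the core, GAGGTCA differed by 5.24 points (interval 4.65 to 5.82), CAGGTCA by 1.90 (interval 1.44 to 2.36) and TAGGTCA by 1.16 (interval 0.798 to 1.53). The extended site TCAAGGTCA, the form preferred by the estrogen-related receptors and other orphan receptors that bind as monomers, was in 0.947% of kept and 0.422% of lost peaks (difference 0.525, interval 0.371 to 0.680). Cores in tandem with a spacer of 1 base, the element of the COUP-TF, HNF4 and RXR dimers, stood in 0.393% of kept and 0.201% of lost peaks (difference 0.192, interval 0.0919 to 0.291). These spellings were chosen after the result for AAGGTCA had been seen, and the longer ones overlap the shorter ones. The palindrome of the glucocorticoid and androgen receptors, steroid receptors that do not bind AGGTCA, differed by -0.00951 points (interval -0.104 to 0.0852).

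The AP-1 site differed less between kept and lost peaks than between shared and K/D-only ones. In the WT list it was in 37.8% of kept and 34.4% of lost peaks at matched place, a difference of 3.38 points (interval 2.49 to 4.26) with an odds ratio of 1.16 (interval 1.12 to 1.20). In the K/D list it was in 25.7% of K/D-only and 37.5% of shared peaks, a difference of -11.8 points (interval -12.8 to -10.7) with the same sign in 20 of 20 parts and an odds ratio of 0.578 (interval 0.549 to 0.607). Among the K/D peaks of the first of 10 parts, 18.3% of the K/D-only peaks (19 of 104) and 46.6% of the shared ones (1949 of 4184) held it. The flanking windows of the K/D peaks held it in 3.30%, so K/D-only peaks were still above their surroundings. The half-site showed no such gap there. It was in 12.0% of K/D-only and 11.5% of shared peaks (difference 0.512, interval -0.223 to 1.25). Its sign was the same in 11 of 20 parts, and over all K/D peaks, without matching, the shares were 11.7% and 13.6%. Where K/D-only peaks were redefined against a shorter WT list the difference was 4.21 points (interval 2.95 to 5.46, the first 50% of each list) and 2.04 (interval 1.27 to 2.80, the WT list cut to the K/D length).

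**Figure D3:**
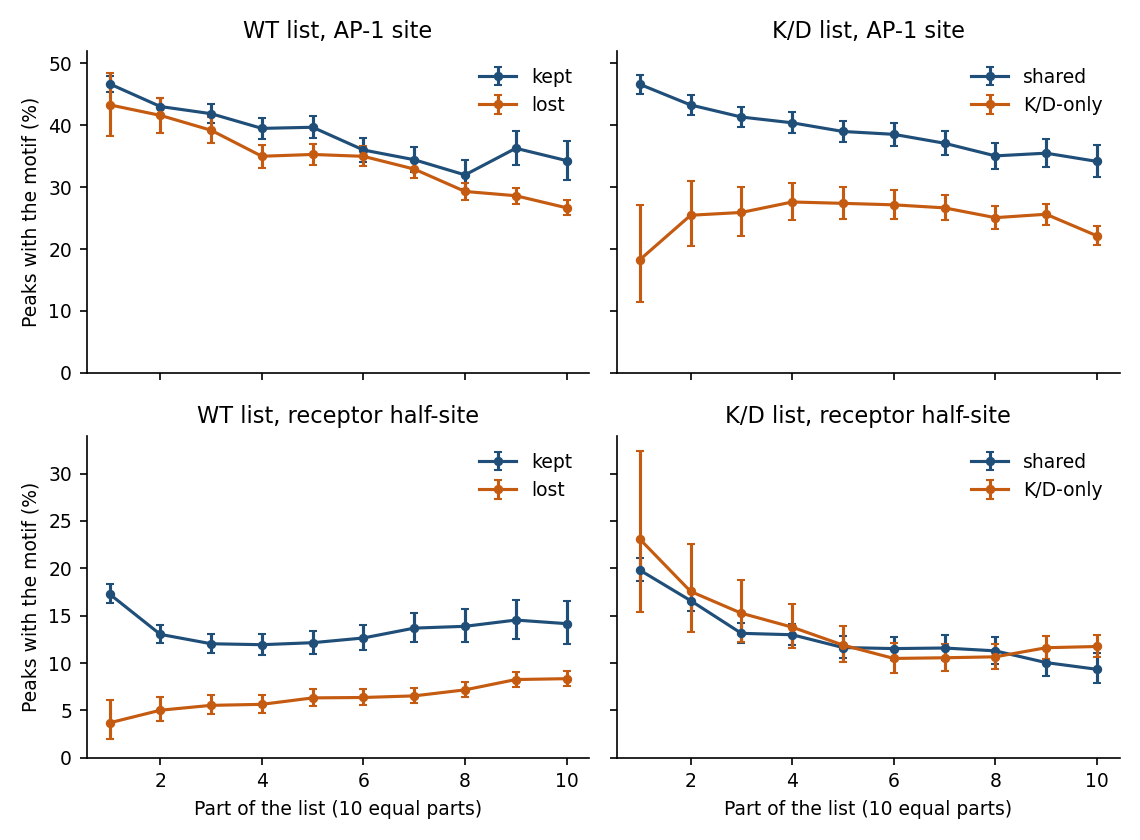
Percentage of peaks with an AP-1 site (upper panels) or a nuclear receptor half-site (lower panels) within 100 bp of the centre, for 10 equal parts of the WT list (left) and the K/D list (right), with exact 95% binomial intervals. In the first part the half-site is in 17.3% of kept and 3.69% of lost WT peaks, and the AP-1 site in 46.6% of shared and 18.3% of K/D-only peaks.

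Peaks with both motifs were kept most often. Of 1894 WT peaks with an AP-1 site and a half-site 75.6% were kept (interval 73.6 to 77.5), while their places gave 58.4%. Of 4189 with the half-site alone 60.1% were kept (interval 58.6 to 61.6) against 49.7% for place. The 19730 peaks with an AP-1 site alone were kept in 51.9% (interval 51.2 to 52.7), close to the 51.7% for their places, and the 33948 with neither in 43.3% (interval 42.8 to 43.8) against 45.7%. Places inside the kept pairs are given as a description, since the lists differ in length and in the share of kept peaks. Within kept pairs the place, in percent of the list, was a median of 3.86 later in K/D than in WT. This median shift was 4.56 for the 10249 pairs with an AP-1 site alone and 4.34 for the 14704 with neither motif. It was 0.915 for the 2516 with a half-site alone. A small shift was not particular to the half-site, since it was 0.376 for the 470 pairs with a CTCF motif and 0.413 for the 1864 at promoters. Over all 28901 pairs Spearman's rho between the 2 places was 0.816, a description over peaks of 2 libraries.

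The CTCF motif did not differ between kept and lost peaks beyond counting error at matched place (1.83% and 1.77%, difference 0.0582, interval -0.185 to 0.302, and 1.63% and 1.90% without matching), but K/D-only peaks held it in 2.46% against 1.63% of shared ones (difference 0.822, interval 0.494 to 1.15). The ETS site CCGGAAG differed by -0.276 points between kept and lost (interval -0.538 to -0.0140) and by 0.415 between K/D-only and shared peaks (interval 0.107 to 0.723), which without matching held it in 1.918% and 1.955%. Without promoter peaks those became -0.172 (interval -0.393 to 0.0483) and -0.122 (interval -0.364 to 0.120), so away from promoters neither interval left out 0. Of the motifs of other enhancer factors, RUNX (TGTGGTT) was rarer in K/D-only than in shared peaks (6.99% against 8.92%, difference -1.93, interval -2.54 to -1.32). FOX (TGTTTAC) was rarer in kept than in lost peaks (difference -0.826, interval -1.32 to -0.329) and in K/D-only than in shared peaks (difference -1.06, interval -1.64 to -0.471). The GATA site AGATAAG differed by 0.828 in the K/D list (interval 0.437 to 1.22) and by -0.363 in the WT list (interval -0.658 to -0.0674). This site was no more common in peaks than in flanking windows (2.74% and 2.83% in the K/D list, 2.67% and 2.80% in the WT list). The NF-kB motif differed by -0.538 in the K/D list (interval -0.871 to -0.205) and by -0.451 in the WT list (interval -0.749 to -0.153). The TEAD site ACATTCC had intervals that included 0 in both lists.

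**Figure D4:**
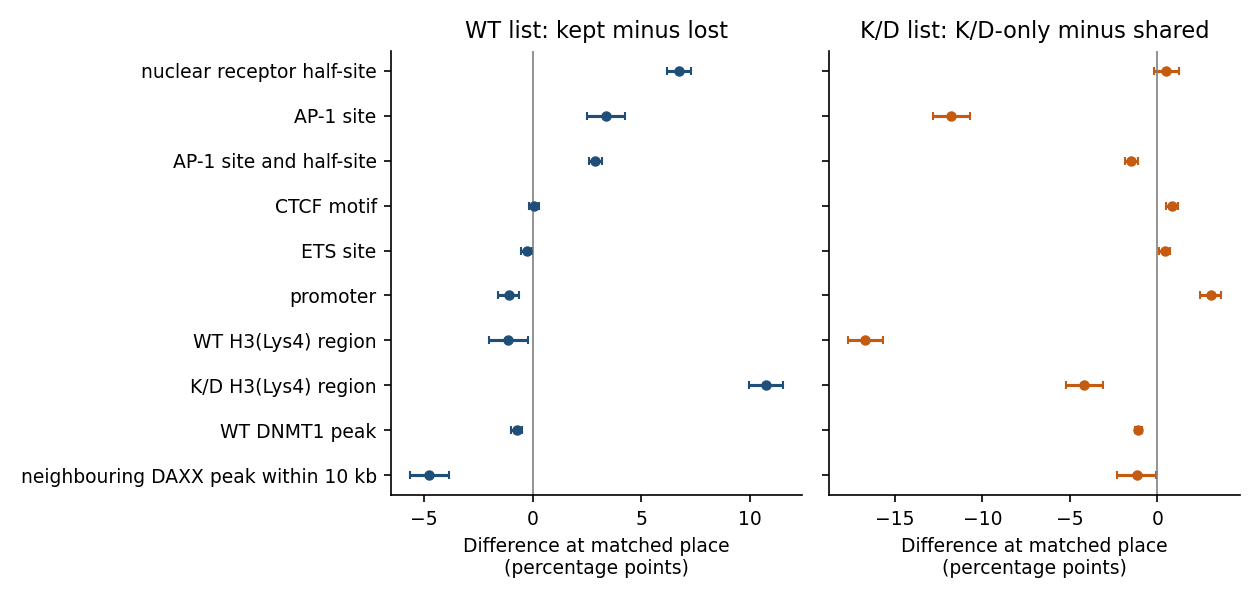
Points give the difference at matched place in percentage points (x axis) with 95% intervals for 10 features (y axis), kept minus lost WT peaks on the left and K/D-only minus shared K/D peaks on the right, on scales of their own. The half-site (6.72) and the K/D H3(Lys4) region (10.7) lie farthest to the right in the WT list, and the WT H3(Lys4) region (-16.7) and the AP-1 site (-11.8) farthest to the left in the K/D list.

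H3(Lys4), a histone mark of promoters and enhancers, differed more between kept and lost peaks in the K/D list of regions than in the WT list. A WT H3(Lys4) region covered 36.9% of kept and 38.0% of lost peaks at matched place (difference -1.12, interval -2.00 to -0.230). That small difference turned to 0.842 with the first 50% of each list and to 0.298 with the WT list cut to the K/D length, and both intervals held 0. A K/D H3(Lys4) region covered 30.7% of kept and 20% of lost peaks (difference 10.7, interval 9.94 to 11.5, 20 of 20 parts). The same held among WT peaks that lay on a WT region, where a K/D region was also present at 39.2% of the 10226 kept and 26.4% of the 12112 lost peaks (difference 12.8, interval 11.4 to 14.2), and among WT peaks off WT regions (25.9% and 15.9%, difference 9.99, interval 9.06 to 10.9). WT peaks with a K/D region alone were kept in 60.2% (4578 of 7599) against 50.6% for place, and those with a WT region alone in 43.3% (6552 of 15140) against 47.3%.

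K/D-only peaks were read the same way. A WT region covered 21.1% of K/D-only and 37.7% of shared K/D peaks at matched place (difference -16.7, interval -17.7 to -15.7) and without matching 21.2% and 35.2%. A K/D region covered 28.2% and 32.3% at matched place (difference -4.17, interval -5.21 to -3.13), but 29.2% and 28.4% without matching, so that direction depends on the matching. Most K/D-only peaks lay on no H3(Lys4) region of either list (60.4% against 45.2% of shared peaks, difference 15.3, interval 14.1 to 16.4). The H3(Lys4) and DAXX lists of each cell line were called against the same input library, so the 2 marks do not come from independent controls.

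Promoters and introns were compared next. At matched place 6.64% of kept and 7.74% of lost peaks were at a promoter (1000 bp upstream to 100 bp downstream of a TSS), a difference of -1.10 points (interval -1.57 to -0.623) that turned to 0.862 (interval 0.169 to 1.55) when only the first 50% of each list was used. Promoters held 8.87% of K/D-only and 5.83% of shared peaks (difference 3.03, interval 2.43 to 3.63). Introns held 47.5% of both kept and lost peaks, and 44.2% of K/D-only against 48.4% of shared peaks (difference -4.17, interval -5.30 to -3.03). K/D-only windows had 0.702 more CpG dinucleotides than shared ones (3.69 and 2.98 per window, interval 0.584 to 0.821) and kept windows fewer than lost ones (3.14 and 3.40, difference -0.264, interval -0.355 to -0.173). A WT DNMT1 peak, the DNA methyltransferase list of the series, was on 1.58% of kept and 2.31% of lost peaks at matched place (difference -0.731, interval -0.985 to -0.478), the reverse of the 2.12% and 1.82% without matching. A neighbouring WT DAXX peak within 10 kb was less common for kept than for lost peaks at matched place (57.8% and 62.6%, difference -4.75, interval -5.64 to -3.86, 20 of 20 parts), while over all WT peaks, without matching, it was more common (61.9% and 58.5%).

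Promoter peaks showed single genes on each side. The first kept promoter peaks were at SLC45A4, a transporter gene, ARID5B, which encodes a chromatin-binding co-activator, MBL2, the gene of a lectin of the complement system, SRI, which encodes the calcium-binding protein sorcin, and KAT6B, the gene of a histone acetyltransferase. They stood between places 60 and 180 of the WT list and between 78 and 294 of the K/D list, with centres 2 to 10 bp apart. The first lost ones were at METTL13, a methyltransferase gene (place 1015, 163 bp upstream of the TSS, nearest K/D peak 12755 bp away), PAPLN, ZMIZ1, KAT6B and UPP1, the gene of uridine phosphorylase. The lost KAT6B peak lay 808 bp from the nearest K/D centre, close to the kept one. The first K/D-only promoter peak was 142 bp upstream of KLHL20, which encodes an adaptor of a ubiquitin ligase (chr1:173683893-173684063, place 1947 of the K/D list). It is printed because it holds an ETS site, in capitals, and had no WT peak within 44332 bp.
KLHL20 promoter, K/D-only: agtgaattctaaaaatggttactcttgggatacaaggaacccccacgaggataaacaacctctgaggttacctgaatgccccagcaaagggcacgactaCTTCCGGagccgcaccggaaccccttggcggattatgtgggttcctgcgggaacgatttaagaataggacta

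The next K/D-only promoter peaks were at TPM3, a tropomyosin gene, SLC19A2, which encodes a thiamine transporter, ADO, the gene of a thiol dioxygenase, and KRTAP13-2, a hair keratin associated gene, at places 3874 to 4122. The one at TPM3 had a WT peak 718 bp away, and the one at KRTAP13-2 had none within 64726 bp. K/D-only promoter peaks thus began 4.54% of the way down the K/D list, and lost ones 1.70% of the way down the WT list.

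Peaks were also counted inside gene bodies. The genes named next were picked as the 2 ends of a ranking by kept peaks against the number for place, so their distance from that number is no test of it. Among 161 protein-coding genes with 20 or more WT peaks the median ratio of kept peaks to the number for place was 0.933 (10th to 90th percentile 0.707 to 1.20). Highest was ALK, a receptor tyrosine kinase gene on chromosome 2, with 19 of 28 WT peaks kept where place gave 12.8. Then came MECOM, which encodes a zinc finger repressor (16 of 21, 11.3 for place), CMIP (13 of 21, 9.24), AGBL4 (19 of 31, 14.2), NAALADL2 (14 of 27, 10.5) and PALM2AKAP2 (17 of 26, 12.8). Lowest was SLC22A23, an orphan transporter gene, with 5 of 22 kept (10.99 for place) and no K/D-only peak. EPS8, which encodes an EGF receptor substrate, had 5 of 20 (9.22), and PRKG1, the gene of a cGMP-dependent kinase on chromosome 10, had 13 of 34 (23.9). ATG7, the gene of the E1-like enzyme of autophagy, had 7 of 23 (12.8), NEBL, a gene of an actin-binding protein, 4 of 20 (7.19), and MICAL2, which encodes an actin oxidase, 6 of 22 (10.6). With place taken within 10 Mb windows, the number for PRKG1 was 17.7 and for CMIP 11.4, nearer to the kept counts, and for ALK 12.6, SLC22A23 11.3 and ATG7 12.4. DAXX itself carried 1 WT peak, which was kept. No list here measures DAXX RNA or protein. The paper reports from RNA-Seq that DAXX RNA was reduced, though not absent, in K/D cells.

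The genes with the most K/D-only peaks were a different set. They were picked for that count, so its distance from the number for place is no test of it. ZFPM2, which encodes a GATA cofactor, had 12 WT and 35 K/D peaks, of which 26 were K/D-only where place in the K/D list gave 9.27. CTNNA2, the gene of a neuronal alpha catenin, had 3 WT and 23 K/D peaks (21 K/D-only, 7.92 for place). FHIT, a fragile-site gene of chromosome 3, had 14 and 26 (17 K/D-only, 10.4 for place). NKAIN2, which encodes a membrane protein that binds the sodium pump, had 0 and 15 (6.13 for place). FOXP1, the gene of a forkhead repressor, had 46 and 48, and its 19 K/D-only peaks were 39.6% of the K/D ones (interval 25.8 to 54.7), near the 32.6% of the whole list, with 11.4 for place. It shares them with an overlapping gene model with 20 K/D-only peaks. H3(Lys4) regions were also more numerous in K/D cells in these 5 genes. Their number went from 8 in WT to 71 in K/D in ZFPM2, from 1 to 26 in CTNNA2, from 4 to 34 in FHIT, from 0 to 20 in NKAIN2 and from 31 to 56 in FOXP1, while the whole lists held 72064 and 72181. Of the K/D-only DAXX peaks a K/D region covered 5 of 26 in ZFPM2, 3 of 21 in CTNNA2, 4 of 17 in FHIT, 5 of 15 in NKAIN2 and 6 of 19 in FOXP1. Over all K/D-only peaks the share was 29.2%, so the peaks of these genes did not lie on K/D regions more often as a group. In the 6 genes with the fewest kept peaks for place, H3(Lys4) regions numbered 14 in WT and 9 in K/D for SLC22A23, 22 and 20 for EPS8, 12 and 11 for ATG7, 18 and 15 for NEBL and 25 and 18 for MICAL2, but 32 and 38 for PRKG1. In the 6 with the most they numbered 20 and 30 for ALK, 27 and 32 for MECOM, 26 and 35 for NAALADL2 and 22 and 23 for PALM2AKAP2, and 19 in each for CMIP and AGBL4. The input libraries have no list here and their signal was not analysed, so read depth and gene copy number at these genes were not measured, and their part in the higher DAXX and H3(Lys4) counts of K/D cells was not tested.

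**Figure D5:**
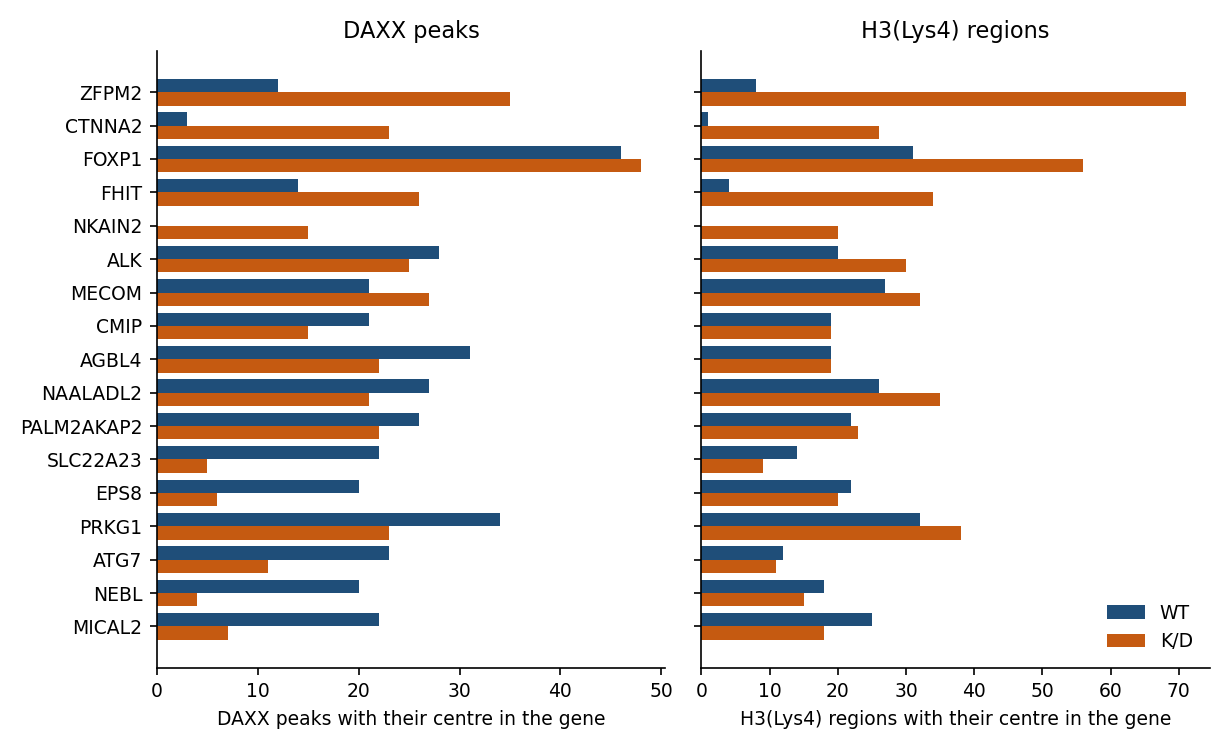
Bars give the number of DAXX peaks (left) and H3(Lys4) regions (right) with their centre in the gene (x axes) in WT (blue) and K/D (orange) for the 17 genes named for their kept or K/D-only peaks (y axis). DAXX and H3(Lys4) counts are both higher in K/D in ZFPM2, CTNNA2, FOXP1, FHIT, NKAIN2 and MECOM, and SLC22A23 has 22 WT and 5 K/D DAXX peaks.

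The same was seen over wider stretches. Over 287 windows of 10 Mb, the number of K/D DAXX peaks per WT peak ran from 0.498 to 1.20 (median 0.708), and its Spearman correlation with the matching ratio of the H3(Lys4) lists was 0.542, a description over windows of the same 2 cell lines. The window of chromosome 8 from 100000001 to 110000000, which holds ZFPM2, had 219 WT and 240 K/D DAXX peaks and 227 and 370 H3(Lys4) regions. That of chromosome 5 from 160000001 had 96 and 115 DAXX peaks and 112 and 212 regions, the highest DAXX ratio. The kept share varied little between chromosomes, from 45.7% on chromosome 4 to 51.1% on chromosome 21, although the places of the peaks gave 40.7% on X to 55.3% on chromosome 14. Kept peaks were therefore fewer than place gave on chromosomes 14, 10 and 20 (by -5.63, -5.39 and -4.76 points) and more on X, 22 and 9 (by 7.91, 6.93 and 6.54 points). The AP-1, half-site, CTCF, ETS and H3(Lys4) differences kept their sign and their side of 0 when place was taken within each chromosome or within 10 Mb windows.

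Gene lists were then read around their TSS, counting peaks within 10 kb. Over all 19785 protein-coding genes 7093 of 15388 WT peaks so placed were kept (46.1%, 47.4% for place). The list farthest above was that of lysosomal genes and the TFEB family, transcription factors of lysosome biogenesis, with 31 of 44 kept (70.5%, interval 54.8 to 83.2, 50.9% for place). Of its K/D peaks 3 of 34 were K/D-only (8.82%, 28.0% for place), and over all protein-coding genes 3551 of 10644 were (33.4%). MITF, a TFEB relative, kept the peak nearest to its TSS, at place 3382, and 7 of its 8 WT peaks within 10 kb were kept. LAMP2, the gene of a lysosomal membrane protein, lost its 1 peak. Core autophagy genes had 23 of 44 kept (52.3%, interval 36.7 to 67.5, 45.6% for place). The peaks nearest to ATG2A, a lipid transfer protein gene, and ATG10, the gene of an E2-like enzyme, were kept, and those of WIPI1 and NBR1, the gene of a cargo receptor, were lost. NBR1 kept the other of its 2 WT peaks within 1 kb of a TSS. Genes of the mTOR pathway had 11 of 22 (50%, 43.3% for place).

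The list farthest below was that of the FOS and JUN family, the subunits of AP-1, with 9 of 30 kept (30.0%, interval 14.7 to 49.4, 52.1% for place). Of its K/D peaks 8 of 17 were K/D-only (47.1%, 36.2% for place), against 33.4% over all protein-coding genes. Of its 11 genes with a WT peak 3 lost all of them, which is no larger a share than the 4039 of 10137 over all protein-coding genes. The promoter peaks of ATF3 and JUN were lost, at places 11533 and 12895, and 1 of 6 WT peaks within 10 kb of ATF3 was kept. ERK feedback genes had 22 of 45 kept (48.9%, interval 33.7 to 64.2, 61.3% for place), with EGR2 and SPRED2 kept and SPRED1 and IER3 lost at their TSS. EGR2 and SPRED2 each kept 1 of 2 WT peaks within 1 kb of a TSS. Integrin genes had 13 of 23 (56.5%, 66.0% for place), with ITGB1 lost (place 9775) and ITGB8 kept. Genes of nuclear receptors had 35 of 76 (46.1%, 50.5% for place). PPARG, the gene of the adipocyte lipid receptor, kept a peak with both an AP-1 site and a half-site at place 1518, and NR2F1, which encodes a COUP-TF, kept its peak at place 5221, while those nearest to RARG and NR4A1 were lost. NR4A1 kept the other of its 2 WT peaks within 1 kb of a TSS.

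The other lists had intervals that held the share for place. NF-kB genes had 17 of 31 kept (54.8%, 54.0% for place), with IL1B and CXCL8 kept and IL6 and REL lost, and apoptosis genes 22 of 45 (48.9%, 49.9% for place), with CASP9 kept and CASP8 lost. DAXX partners and PML bodies had 15 of 30 (50%, 45.5% for place), with PML and HDAC1 kept and H3-3A, which encodes H3.3, lost. Epithelial-mesenchymal transition genes had 19 of 32 (59.4%, 52.4% for place), ETS factors 19 of 37 (51.4%, 58.4%), DNA methylation genes 7 of 19 (36.8%, 49.4%), cytosolic ribosomal protein genes 13 of 27 (48.1%, 47.8%) and androgen-regulated and luminal genes 11 of 26 (42.3%, 51.7%). CTCF and cohesin genes had 3 of 12 (25%, 22.9%), and markers of other lineages, which PC3 cells should not use, 4 of 13 (30.8%, 33.2%). Of 17 lists, the intervals of the FOS and JUN and the lysosomal lists left out the share for place. With place taken within 10 Mb windows that share was 52.2% for the FOS and JUN list and 55.3% for the lysosomal list, which then lay inside its interval.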

How the data were processed

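Per the labels and the study's methods, the authors used CASAVA 1.8.2 for base calling, Bowtie2 2.1.0 for alignment to hg19 and HOMER 4.6 for peaks, versions as in the submitters' processing notes. Per the file headers, each DAXX list was called on its own library, which joins an old and a new run, against the input, with a 4-fold excess, a Poisson p-value limit of 0.0001 and an FDR of 0.001. The score column the authors deposited holds 1 constant value, so place in the deposited list stood for strength, and start and end positions were used. DAXX peaks on other contigs (17 WT, 18 K/D) were left out.

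The members and lists were chosen with earlier results of these data known. Overlaps, exact binomial intervals and differences at matched place (20 equal parts, Mantel-Haenszel weights) were computed in Python 3.11.15 (pandas 2.3.3, scipy 1.17.1, pysam 0.24.0) and tested on simulated data. The number for place of a set is the sum, over its peaks, of the kept share of their part. Genes came from GENCODE release 44 on GRCh37, the build of hg19, which was also the source of sequence. Motifs (16, with 6 more added after the data were seen) were searched within 100 bp of centres. Of 328 list genes 327 matched. Genes were named by rule: the first 5 promoter peaks of each set, the 6 genes with the highest and the 6 with the lowest ratio of kept peaks to the number for place, the 6 with the most K/D-only peaks, and per list up to 2 genes whose nearest WT peak within 1 kb of a TSS came first and was kept, and up to 2 for which it was lost. Alternatives were other overlap rules, list lengths, parts and windows, and leaving out chromosome 10. Place within chromosomes or 10 Mb windows and leaving out promoter peaks were added after seeing the data. Some items the rule names are not reported here.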

Additional observations from a re-analysis of the deposited data

How the results depend on the processing

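Peaks of 1 library per side give no replicate spread, a lost peak is one not called rather than one shown to be empty, and place is a stand-in for strength. The kept percentage of WT peaks was 47.0 with centres within 100 bp, 46.3 with at least 50% of each peak in common, 55.9 with the first 50% of each list and 59.5 with the WT list cut to the K/D length, and the shared percentage of K/D peaks was 65.6, 64.55, 77.9 and 59.5. With the first 50% of each list, kept minus lost reversed to 0.182 for the ETS site, 0.862 for promoters, 0.0367 for GC content and 0.842 for WT H3(Lys4) regions and was 0.462 for CTCF, now above 0. K/D-only minus shared reversed to -0.173 for GC content and -0.0140 for K/D DNMT1 peaks, was 4.21 for the half-site and 0.115 for ETS. With the WT list cut, kept minus lost was -0.224 for ETS and 0.298 for WT H3(Lys4), and K/D-only minus shared was 2.04 for the half-site and 0.195 for ETS. The K/D-only difference for neighbouring peaks had intervals that included 0 with centres within 100 bp (-0.759), 50% in common (-0.375) and without chromosome 10 (-0.862). CTCF, kept minus lost, was -0.00188 with 50% in common. With motifs within 50 bp ETS differences were -0.0870 and 0.239, and WT H3(Lys4), kept minus lost, was -0.730 with the centre inside the region. Without promoter peaks ETS was -0.172 and -0.122, and K/D-only minus shared was -0.150 for GC content. The other 199 values recomputed for these comparisons kept their direction and side of 0, or stayed close for counts, and the half-site, AP-1 and K/D H3(Lys4) differences between kept and lost peaks were among them under each alternative run. No paired analysis was possible because each group holds 1 library. The cause of these changes was not tested.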
